A study of Mus musculus with 9 samples.

Results

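The 35 genes described here are markers of the cells that build vessels: 25 of blood endothelium, 3 of lymphatic endothelium and 7 of mural cells, the pericytes and smooth muscle cells that wrap vessels. They were chosen by gene name, with earlier results of these data known. Each was read from the brightest array row annotated to its symbol alone, and all 35 were found among the 22180 genes measured. RNA came from whole corneas of 3 groups of mice, all 58 days old and all given doxycycline by intraperitoneal injection between day 28 and day 58, on a mixed background of FVB, Swiss Black, 129, C57BL6/J and A.BY. The rescued group carried the Dstn corn1 mutation and in addition had Srf, the gene of serum response factor, ablated genetically in the corneal epithelium. The mutant group carried the Dstn corn1 mutation in destrin, an actin-depolymerising protein, and the WT group was wild type. Each group had 3 arrays, and each array held 10 corneas pooled from 5 mice. No source used here names the driver of the ablation.

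The cornea is normally free of vessels, which end in loops at its margin, the limbus, and Dstn corn1 mice are known for blood vessels that grow into the cornea. A new vessel begins as a sprout of endothelial cells, joined by cadherins and tight junction proteins and guided by growth factor, angiopoietin and apelin signals. Mural cells then cover it, while lymphatic vessels form from endothelium with its own regulators and hyaluronan receptor. Comparing mutant with WT corneas asks how much vessel marker RNA the mutation is accompanied by. Comparing rescued with mutant corneas asks how much of that RNA is left when the epithelium lacks Srf. Corneas were measured whole, so fewer cells of a type and less RNA per cell cannot be told apart.

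Promoter windows of 3 members are shown as examples: Emcn and Eng of blood endothelium, whose windows hold a motif of ETS factors, and Rgs5 of mural cells, whose window does not. Each window runs over 300 bases around the gene's start in RefSeq (GRCm38.p6), most of them upstream, and is written 5′ to 3′ on the gene's strand, with AGGAAG on either strand in capitals. The windows are chr3:137340828-137341127 (plus strand) for Emcn, chr2:32646345-32646644 (plus strand) for Eng and chr1:169655251-169655550 (plus strand) for Rgs5.
Emcn: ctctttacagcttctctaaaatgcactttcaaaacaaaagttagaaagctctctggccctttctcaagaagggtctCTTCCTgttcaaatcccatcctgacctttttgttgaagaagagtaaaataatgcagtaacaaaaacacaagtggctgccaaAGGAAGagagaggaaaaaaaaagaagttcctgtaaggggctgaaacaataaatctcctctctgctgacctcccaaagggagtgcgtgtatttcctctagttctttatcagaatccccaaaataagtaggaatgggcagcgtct
Eng: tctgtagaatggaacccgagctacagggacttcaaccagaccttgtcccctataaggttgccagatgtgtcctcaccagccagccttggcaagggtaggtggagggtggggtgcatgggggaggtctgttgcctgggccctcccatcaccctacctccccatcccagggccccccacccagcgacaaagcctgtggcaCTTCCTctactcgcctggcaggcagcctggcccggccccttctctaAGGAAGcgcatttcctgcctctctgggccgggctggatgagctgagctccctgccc
Rgs5: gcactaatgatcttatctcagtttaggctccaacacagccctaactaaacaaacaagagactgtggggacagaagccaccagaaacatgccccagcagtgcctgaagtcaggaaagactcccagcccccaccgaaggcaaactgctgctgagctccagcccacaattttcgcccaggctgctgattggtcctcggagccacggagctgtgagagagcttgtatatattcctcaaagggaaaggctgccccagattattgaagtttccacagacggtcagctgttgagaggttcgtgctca
Emcn and Eng held 2 copies of AGGAAG each, on both strands, and Rgs5 held none. The windows of Mcam and Tek, not shown, also held none. Whether the motif goes with the size of a gene's difference between groups was not tested. ETS factors, the family of the endothelial regulator Erg, bind sequences with a GGAA core. Windows were given for 20 of the 35 members, 25 windows in all. AGGAAG was in 11 of the 25 windows (44.0%), against 35.4% of all 32851 windows of the same length. The other ETS motif searched, CCGGAA, was in 0 of the 25, against 14.9% of all windows. A motif bound by Sox factors, AACAAT, was in 3 of 25 (12.0%), against 10.7% of all windows, and AGATAA, bound by GATA factors, was in 3 of 25 (12.0%), against 11.2%. The CArG box, bound by serum response factor, was in 0 of 25, against 1.63% of all windows. Both strands were searched, AGGAAG and CCGGAA can share end letters, and a match describes letters in a window, not a bound site.

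Values are log2 intensities, so a difference of 1 is a doubling. A gene was called where its limma p, adjusted over all 22180 genes by Benjamini-Hochberg, was under 0.05. Where the lower group's mean lay under 6.77, the median of all rows, background may add to the signal and the fold, or the log2 difference of a called gene given without its SE, is written "at least". Differences with an SE, an interval or a p of their own are as fitted. Arrays of a group correlated at 0.990 to 0.992 over all 41345 array rows, and arrays of different groups at 0.971 to 0.988. The mutated gene Dstn had log2 intensities of 5.61, 5.62 and 5.63 in rescued pools and 5.55, 5.80 and 5.54 in mutant pools, against 12.58, 12.55 and 12.59 in WT pools. Srf had 9.14, 9.45 and 8.45 in rescued pools, 10.77, 10.72 and 10.55 in mutant pools and 9.23, 8.98 and 9.17 in WT pools. Markers of the cornea were bright in all 9 pools: the epithelial keratin Krt12 lay at 13.49 to 13.96 and the stromal proteoglycan Kera at 12.14 to 12.90. The mutant pool of replicate 2 stood apart in the X-inactivation transcript Xist, at 6.12 against 11.76 to 12.94 in the other 8 pools. The Y-linked Eif2s3y was at 5.63 in WT replicate 1 and 5.46 in WT replicate 3, against 6.69 to 10.31 in the other 7 pools. Levels of sex-linked genes thus differed between pools, and their part in the vessel results was not tested.

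Vessel genes were broadly higher in mutant corneas than in WT corneas. Of the 35 members, 28 were called higher in mutant corneas, against 15.1% of all genes, and 0 were called lower, against 16.5% of all genes (31.6% of all genes in either direction). By limma's unadjusted p under 0.05, 31 members were higher and 0 were lower, against 4202 and 4684 of all 22180 genes. The calls covered 22 of 25 blood endothelial genes, 2 of 3 lymphatic genes and 4 of 7 mural genes. The median log2 difference of the 35 members was 0.95, against -0.02 for all genes, and single members ran from -0.17 to 4.80. In 31 members every mutant pool lay above every WT pool, against 21.0% of all genes. Leaving out each of the 9 arrays in turn gave 24 to 28 members called higher, and 28 without mutant replicate 2. Calls over all genes, in either direction, then numbered 5913 to 6948, against 7004 with all arrays.

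Among the proteins that hold endothelial cells together, Cdh5 encodes VE-cadherin, the adhesion molecule of endothelial adherens junctions. Cdh5 was at 8.84, 9.26 and 9.0 in rescued pools, 10.11, 9.52 and 9.83 in mutant pools and 6.61, 6.32 and 6.37 in WT pools. No pool of one group overlapped another group, and rescued pools lay between the others. Cdh5 was at least 10.4-fold higher in mutant corneas (log2 difference from WT 3.38 ± 0.16 SE, limma adjusted p = 8.26e-07, n = 3 each). Pecam1 encodes CD31, an adhesion molecule of endothelium that platelets and leukocytes also carry. It was at 8.32, 8.79 and 8.47 in rescued pools, 9.67, 8.90 and 9.61 in mutant pools and 6.94, 7.32 and 6.90 in WT pools. The 3 groups were again apart, although mutant replicate 2 lay only just above the highest rescued pool. Pecam1 rose 5.06-fold in mutant against WT corneas (log2 difference 2.34 ± 0.21 SE, limma adjusted p = 2.61e-05). Esam, an adhesion molecule of tight junctions, rose by at least 1.69 on the log2 scale and Cldn5, the main claudin of endothelial tight junctions, by at least 1.18. The remaining junction gene, Icam2, was higher by 0.24 with an adjusted p of 0.122 (limma) and was not called, although its mutant pools (5.89 to 5.94) lay above its WT pools (5.52 to 5.80).

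**Figure D1:**
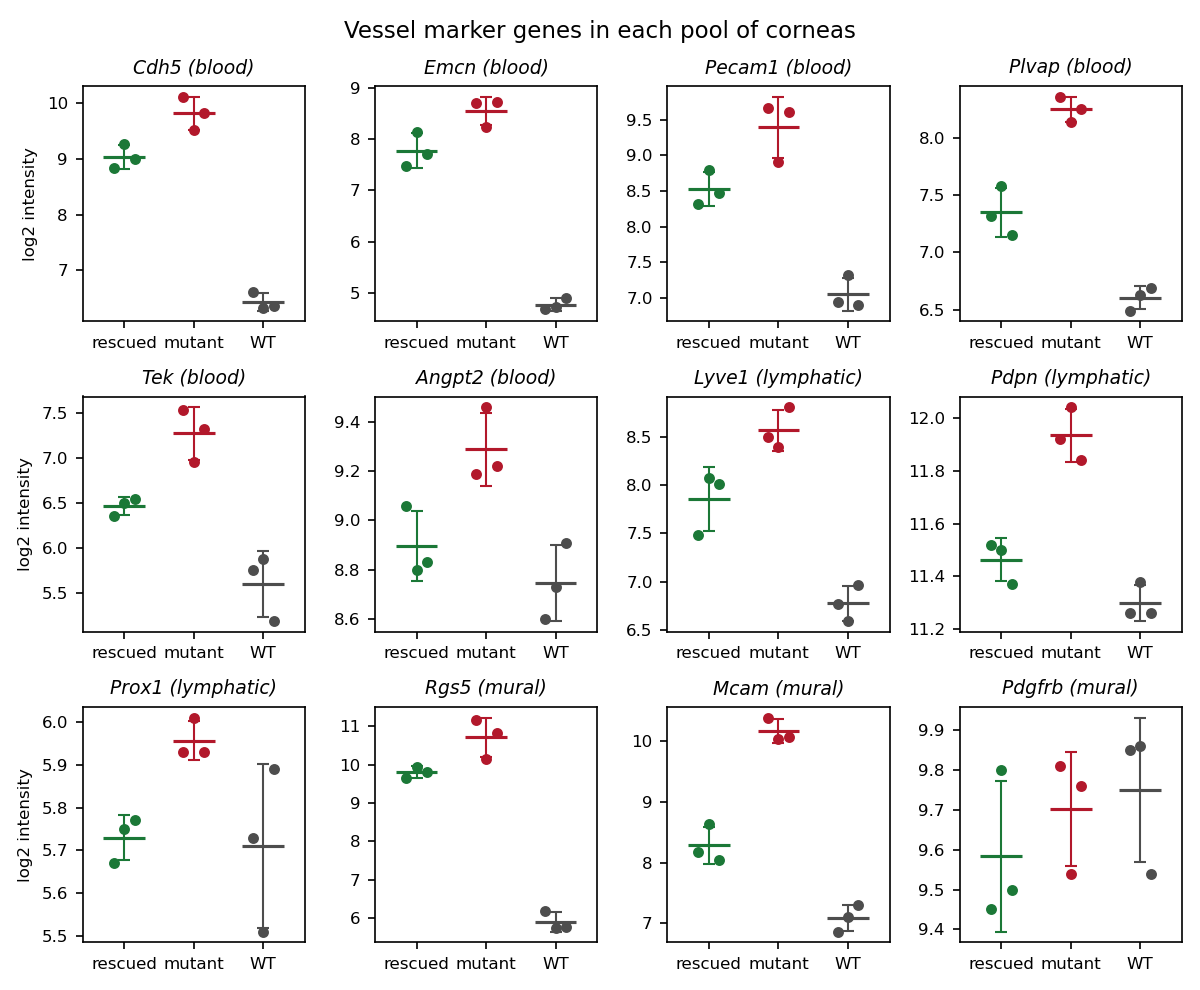
Log2 intensity of 12 vessel marker genes (vertical axis, scaled for each gene) in rescued, mutant and WT corneas. Each point is 1 pool of 10 corneas, horizontal lines are group means and bars are SD (n = 3). Rescued pools lie between mutant and WT pools for Cdh5, Emcn, Pecam1, Plvap, Tek, Lyve1, Rgs5 and Mcam, while the groups overlap for Pdgfrb.

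The angiopoietin system sets whether vessels stay quiet or sprout: Tek is the receptor Tie2, Tie1 its partner, Angpt1 the stabilising ligand and Angpt2 a ligand released by sprouting endothelium. All 4 were called higher in mutant than in WT corneas. Tek was at 6.35, 6.50 and 6.55 in rescued pools, 7.54, 6.96 and 7.33 in mutant pools and 5.75, 5.87 and 5.18 in WT pools. The groups did not overlap, and Tek was at least 3.19-fold higher in mutant corneas (log2 difference from WT 1.67 ± 0.19 SE, limma adjusted p = 0.000111). Angpt2 was at 9.06, 8.80 and 8.83 in rescued pools, 9.19, 9.46 and 9.22 in mutant pools and 8.60, 8.73 and 8.91 in WT pools. Its mutant pools stood above both other groups, which overlapped each other, and it rose 1.46-fold against WT (log2 difference 0.55 ± 0.11 SE, limma adjusted p = 0.0037). Angpt1 was at 5.90, 5.86 and 5.75 in rescued pools, 6.54, 5.58 and 6.54 in mutant pools and 5.45, 5.54 and 5.14 in WT pools, so mutant replicate 2 lay close to WT and under all rescued pools. Its difference from WT was 0.84 (limma adjusted p = 0.0184), and without mutant replicate 1, mutant replicate 3 or WT replicate 3 the adjusted p was 0.0695, 0.0697 or 0.0684. A second row of Angpt1 showed a difference of 0.00 between mutant and WT means. Tie1 was higher by 0.52 (limma adjusted p = 0.0349), and its adjusted p was 0.0503 to 0.123 without mutant replicate 1, mutant replicate 3, rescued replicate 2 or any 1 of the WT arrays.

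The 9 surface and secreted proteins of endothelium were all called higher in mutant than in WT corneas. Emcn encodes endomucin, a sialomucin of capillary and venous endothelium, and was at 7.47, 8.14 and 7.71 in rescued pools, 8.69, 8.23 and 8.72 in mutant pools and 4.69, 4.72 and 4.91 in WT pools. The groups were apart, and Emcn was at least 13.7-fold higher in mutant corneas (log2 difference from WT 3.77 ± 0.18 SE, limma adjusted p = 8.85e-07), the widest gap among the blood endothelial members. Plvap, which forms the diaphragms of endothelial pores, was at 7.32, 7.58 and 7.15 in rescued pools, 8.36, 8.14 and 8.26 in mutant pools and 6.49, 6.63 and 6.69 in WT pools. Its groups were also apart, with a rise of at least 3.14-fold in mutant against WT corneas (log2 difference 1.65 ± 0.11 SE, limma adjusted p = 4.82e-06). Cd93, a lectin-like receptor of endothelium and myeloid cells, rose by at least 2.04 and Eng, the TGF-beta co-receptor endoglin, by 1.46 on the log2 scale. Vwf, the clotting factor that endothelium and platelets store, rose by at least 1.06, Egfl7, a matrix protein secreted by endothelium, by 0.95, and Robo4, an endothelial guidance receptor, by at least 0.65. Ecscr, a surface regulator of endothelial movement, rose by at least 0.85, and Cd34, a sialomucin that corneal stromal cells also carry, rose by 0.85.

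Aplnr, the apelin receptor of sprouting and venous endothelium, was at least 1.97-fold higher in mutant corneas (log2 difference from WT 0.98, limma adjusted p = 0.00041). Its ligand Apln differed by 0.36 (limma adjusted p = 0.0251), and its adjusted p was 0.0847, 0.0787 or 0.07 without mutant replicate 1, WT replicate 1 or WT replicate 2. Of the selectins, which slow leukocytes on the vessel wall, Selp was at 7.02, 7.22 and 6.71 in rescued pools, 8.10, 7.32 and 7.91 in mutant pools and 6.78, 6.45 and 6.44 in WT pools. Rescued and WT pools of Selp overlapped, while the mutant pools lay above both. Selp, which platelets carry too, was at least 2.33-fold higher in mutant corneas (log2 difference from WT 1.22 ± 0.20 SE, limma adjusted p = 0.00117). Sele, the selectin that endothelium makes when inflamed, was at 5.78, 5.73 and 5.52 in rescued pools, 5.93, 5.66 and 5.72 in mutant pools and 5.48, 5.58 and 5.57 in WT pools, and was not called (difference between mutant and WT 0.23, limma adjusted p = 0.0951).

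The transcription factors of endothelium differed among themselves. Sox18, a regulator of vessel and lymphatic development, was at 6.40, 6.92 and 6.66 in rescued pools, 7.46, 7.13 and 7.31 in mutant pools and 6.14, 6.28 and 6.21 in WT pools. The groups were apart, with a rise of at least 2.13-fold in mutant against WT corneas (log2 difference 1.09 ± 0.13 SE, limma adjusted p = 0.000151). Sox17, a regulator of arterial endothelium, differed by 0.27 (limma adjusted p = 0.0172), with an adjusted p of 0.0591, 0.0554 or 0.0522 without mutant replicate 1, WT replicate 2 or WT replicate 3. Erg, an ETS factor of endothelium, was at 9.66, 9.37 and 9.45 in rescued pools, 9.62, 9.23 and 9.39 in mutant pools and 9.56, 9.71 and 9.49 in WT pools. These groups overlapped, and the 95% interval of the mutant minus WT difference in Erg ran from -0.43 to 0.09. The WT mean of Erg was 9.58, against 6.43 for Cdh5 and 4.77 for Emcn. Which corneal cells gave the Erg signal was not tested.

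The 3 lymphatic markers gave unequal differences. Lyve1, the hyaluronan receptor of lymphatic endothelium, which some macrophages also carry, was at 7.48, 8.08 and 8.01 in rescued pools, 8.50, 8.4 and 8.81 in mutant pools and 6.77, 6.59 and 6.96 in WT pools. Its groups were apart, and it rose 3.47-fold in mutant against WT corneas (log2 difference 1.80 ± 0.17 SE, limma adjusted p = 3.79e-05). Pdpn encodes podoplanin, a membrane glycoprotein of lymphatic endothelium that epithelial cells also make. It was at 11.52, 11.50 and 11.37 in rescued pools, 11.92, 12.04 and 11.84 in mutant pools and 11.26, 11.38 and 11.26 in WT pools. Mutant pools lay above the other groups, and Pdpn rose 1.55-fold in mutant against WT corneas (log2 difference 0.63 ± 0.08 SE, limma adjusted p = 0.00016). Prox1, the transcription factor that specifies lymphatic endothelium and that lens cells also express, was at 5.67, 5.75 and 5.77 in rescued pools, 5.93, 6.01 and 5.93 in mutant pools and 5.73, 5.51 and 5.89 in WT pools. Its mutant pools were the 3 highest, but the difference of 0.25 from WT was not called (limma adjusted p = 0.0676), and without WT replicate 3 it was 0.34 and called. Markers of macrophages and of lens were read beside these genes. The summed linear intensity of 15 macrophage and pan-leukocyte genes was 5799 to 6921 in rescued pools, 5354 to 7217 in mutant pools and 4125 to 4286 in WT pools. Of the 15, 11 were higher and 3 lower in mutant than in WT corneas, against 15.1% and 16.5% of all genes. The 3 lower ones, named after their values were seen, were Itgam (-1.13), Folr2 (-0.44) and Mertk (-0.36). Lens genes, 17 measured and 9 of them lower in mutant than in WT corneas, summed to 5119 to 6035 in rescued pools, 5087 to 8842 in mutant pools and 11979 to 15787 in WT pools. The part of either list in the Lyve1 or Prox1 values was not tested.

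Mural markers held both the widest difference of all 35 genes and several with none detected. Rgs5, a regulator of G-protein signalling that marks pericytes, was at 9.65, 9.95 and 9.82 in rescued pools, 11.15, 10.15 and 10.83 in mutant pools and 6.2, 5.75 and 5.77 in WT pools. The groups were apart, with rescued pools nearer to mutant than to WT, and Rgs5 was at least 27.9-fold higher in mutant corneas (log2 difference from WT 4.80 ± 0.23 SE, limma adjusted p = 9.11e-07). Mcam encodes CD146, an adhesion molecule of pericytes, smooth muscle and endothelium, and was at 8.18, 8.63 and 8.04 in rescued pools, 10.39, 10.04 and 10.07 in mutant pools and 6.86, 7.10 and 7.30 in WT pools. Its groups were also apart, with rescued pools nearer to WT, and Mcam rose 8.44-fold in mutant against WT corneas (log2 difference 3.08 ± 0.17 SE, limma adjusted p = 1.62e-06). Abcc9, the sulfonylurea receptor subunit of the pericyte potassium channel, rose by 0.97 and Cspg4, the proteoglycan NG2 of pericytes, by 0.63. Pdgfrb, the receptor through which endothelium recruits pericytes and which stromal fibroblasts also carry, was at 9.45, 9.80 and 9.50 in rescued pools, 9.81, 9.54 and 9.76 in mutant pools and 9.85, 9.86 and 9.54 in WT pools. The Pdgfrb pools overlapped in all 3 groups, and the 95% interval of the mutant minus WT difference ran from -0.33 to 0.23. Des, the muscle intermediate filament desmin, and Kcnj8, the pore subunit that pairs with Abcc9, each differed by 0.21 between mutant and WT corneas and were not called, with intervals of -0.07 to 0.49 for Des and -0.07 to 0.48 for Kcnj8.

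**Figure D2:**
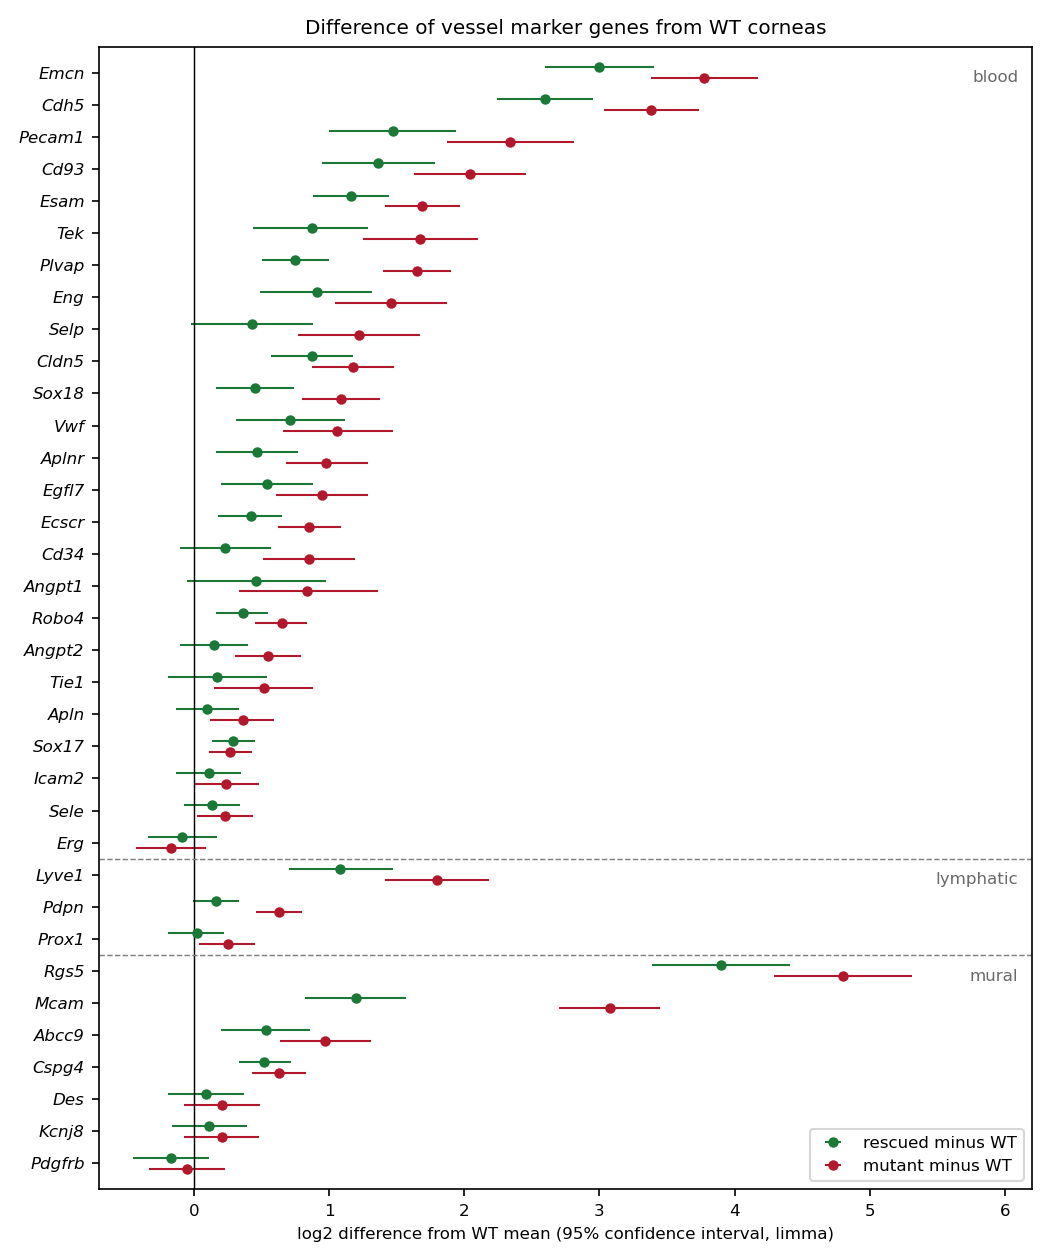
Log2 difference from the WT mean of the 35 members (horizontal axis) in rescued and mutant corneas, with 95% confidence intervals from limma (n = 3 pools a group). Points of rescued corneas lie between 0 and the mutant points for most genes, with Rgs5 at 3.90 in rescued and 4.80 in mutant corneas and Erg and Pdgfrb near or below 0.

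Vessel genes were lower in rescued than in mutant corneas by a smaller amount. Of the 35 members, 17 were called lower in rescued corneas, against 6.88% of all genes, and 0 were called higher, against 6.46% (13.3% in either direction). By limma's unadjusted p under 0.05, 23 members were lower and 0 were higher, against 3184 and 2797 of all 22180 genes. The calls were 13 blood endothelial, 2 lymphatic and 2 mural genes. The median log2 difference was -0.43, against 0.00 for all genes, with a range of -1.88 to 0.08. In 22 members every rescued pool lay below every mutant pool, against 17.1% of all genes. These counts moved with single arrays: 5 members were called lower without mutant replicate 1, 5 without mutant replicate 3, 7 without rescued replicate 1 and 7 without rescued replicate 3, while 21 were called without mutant replicate 2. Calls over all genes, in either direction, numbered 1871, 1931, 2315, 1808 and 2680 without these arrays in the same order. With all arrays they numbered 2959. The calls that held with each array left out were those of Cdh5, Plvap, Sox18, Pdpn and Mcam.

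The widest difference was that of Mcam, which fell 3.68-fold in rescued against mutant corneas (log2 difference -1.88, 95% interval -2.26 to -1.51, limma adjusted p = 0.000146). Plvap fell 1.87-fold (limma adjusted p = 0.000782), Cdh5 fell 1.72-fold (limma adjusted p = 0.00985) and Pdpn fell 1.39-fold (limma adjusted p = 0.00317). Sox18 was at least 1.56-fold lower (limma adjusted p = 0.0103). In these 5 genes the 3 rescued pools all lay under the 3 mutant pools. The other 12 called members were Pecam1, Tek, Emcn, Esam, Ecscr, Cd34, Cd93, Aplnr, Angpt2, Selp, Lyve1 and Rgs5, and each lost its call without at least 1 array. Rgs5, for instance, differed by -0.90 (95% interval -1.41 to -0.39, limma adjusted p = 0.0291), and by -0.68 to -0.91 and uncalled without mutant replicate 1, mutant replicate 3, rescued replicate 1 or rescued replicate 3. Pecam1 differed by -0.87 (limma adjusted p = 0.0234), and by -0.73 to -0.84 and uncalled without any 1 of the same 4 arrays. Cd93 was called although rescued replicate 2 (7.39) lay above mutant replicate 2 (7.36).

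Among the 18 members not called between rescued and mutant corneas, intervals still allowed sizeable differences for some. The 95% interval of the rescued minus mutant difference was -0.97 to -0.14 for Eng, -0.76 to 0.05 for Vwf and -0.61 to 0.00 for Cldn5. It was narrower for Cspg4, at -0.30 to 0.09, and for Sox17, at -0.15 to 0.18. Cspg4, for example, was at 7.57, 7.54 and 7.64 in rescued pools and 7.62, 7.70 and 7.75 in mutant pools, against 7.11, 7.21 and 6.87 in WT pools. Both Dstn mutant groups of Cspg4 lay above WT and overlapped each other.

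**Figure D3:**
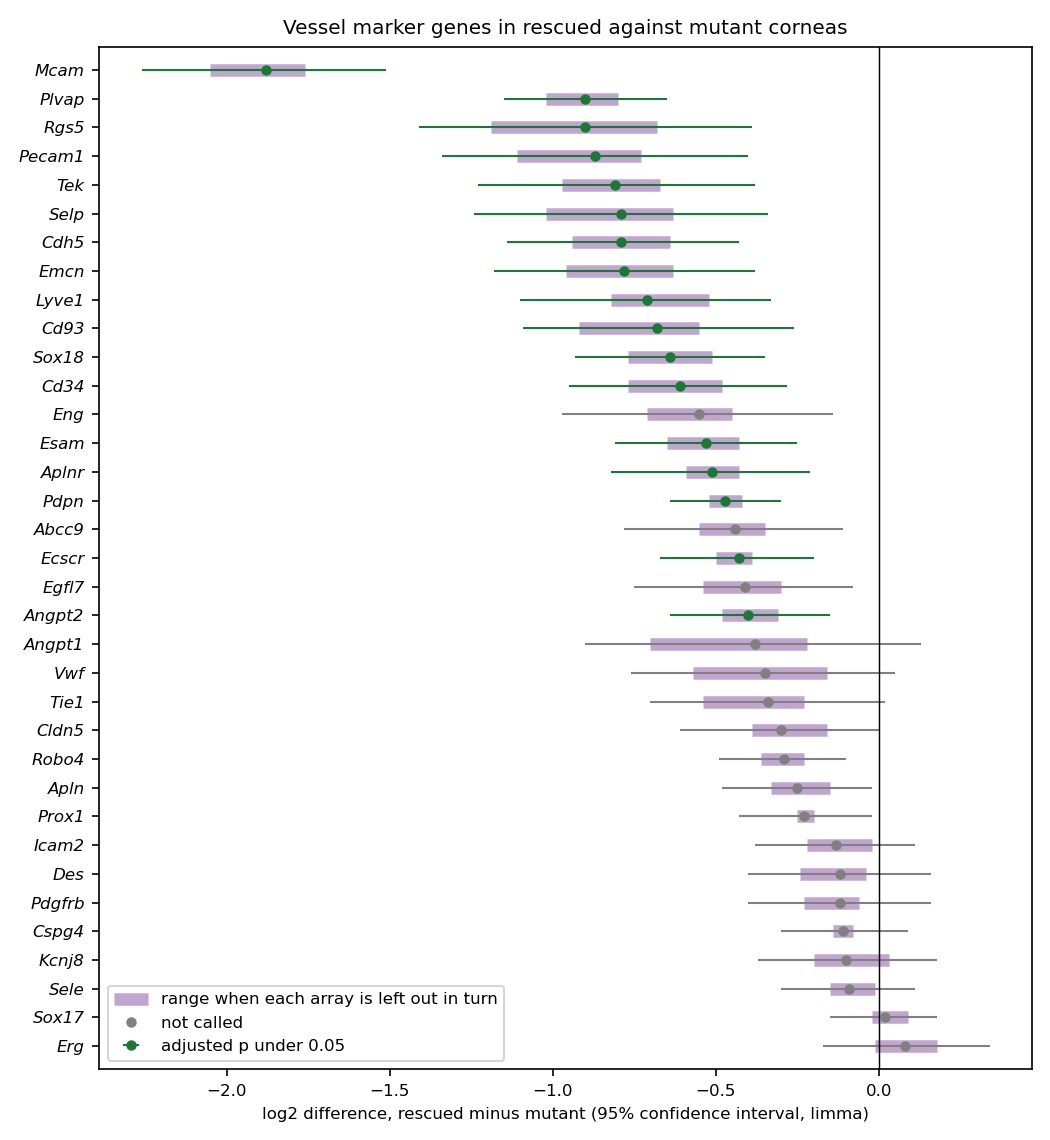
Log2 difference of rescued minus mutant corneas for the 35 members, sorted by size, with 95% confidence intervals from limma (lines) and the range of the difference when each array was left out in turn (bars). Green marks the 17 members with an adjusted p under 0.05, of which Mcam, at -1.88, lies apart from the rest.

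Many vessel marker genes were still higher in rescued than in WT corneas. Of the 35 members, 21 were called higher in rescued than in WT corneas, against 6.28% of all genes, and 0 were called lower, against 7.43% (13.7% in either direction). By limma's unadjusted p under 0.05, 21 were higher and 0 lower, against 2620 and 3318 of all 22180 genes. The calls were 16 blood endothelial genes, 1 lymphatic gene, Lyve1, and 4 mural genes. The median log2 difference was 0.46, against -0.01 for all genes, and the range -0.17 to 3.90. In 21 members every rescued pool lay above every WT pool, against 13.4% of all genes. The count was 12 without rescued replicate 2, 13 without WT replicate 1 and 13 without WT replicate 2. It lay between 16 and 19 without any other single array, and 19 were called without mutant replicate 2. Over all genes, 1812 were called in either direction without rescued replicate 2, 2136 without WT replicate 1 and 2053 without WT replicate 2. With all arrays 3042 genes were called. The calls of Pecam1, Cdh5, Emcn, Cldn5, Esam, Eng, Plvap, Cd93, Lyve1, Rgs5, Mcam and Cspg4 held with each array left out. Against WT corneas, Rgs5 was at least 14.9-fold higher in rescued corneas (limma adjusted p = 1.57e-05), Emcn at least 7.99-fold (limma adjusted p = 1.63e-05) and Cdh5 at least 6.05-fold (limma adjusted p = 1.82e-05). Pecam1 was 2.77-fold higher (limma adjusted p = 0.00186), Mcam 2.29-fold higher (limma adjusted p = 0.00174) and Lyve1 2.12-fold higher (limma adjusted p = 0.00322).

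Put together over the 3 comparisons, 13 members were higher in mutant than in WT, lower in rescued than in mutant and still higher in rescued than in WT corneas, a pattern that 2.47% of all genes had. These were Pecam1, Cdh5, Tek, Emcn, Esam, Plvap, Sox18, Ecscr, Cd93, Aplnr, Lyve1, Rgs5 and Mcam. Only Cdh5, Plvap and Mcam kept all 3 calls with each array left out, and the rescued and WT pools of Aplnr overlapped. Another 8 were higher than WT in both mutant and rescued corneas with no call between the last pair: Vwf, Cldn5, Eng, Egfl7, Robo4, Sox17, Cspg4 and Abcc9 (3.01% of all genes). Cd34, Angpt2, Selp and Pdpn were higher in mutant than in WT, lower in rescued than in mutant and not called between rescued and WT corneas (3.62% of all genes). Tie1, Apln and Angpt1 were called between mutant and WT alone (5.96% of all genes). The remaining 7, Erg, Sele, Icam2, Prox1, Pdgfrb, Des and Kcnj8, had no call, as had 66.0% of all genes. The 3 comparisons share their samples, so these patterns are counts and not independent observations.

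The log2 difference from WT that was left in rescued corneas can be written as a percent of the mutant log2 difference, as a description with no test. Over the 28 members higher in mutant corneas its median was 54.8%, against 47.5% over all 3355 genes higher in mutant corneas. It was highest for Sox17, at 106.0% of a small mutant difference, followed by 83.1% for Cspg4, 81.2% for Rgs5, 79.4% for Emcn and 76.8% for Cdh5. On the log2 scale these genes lay nearer to mutant than to WT, although Rgs5, Emcn and Cdh5 were called lower in rescued than in mutant corneas. The WT means of Rgs5 (5.91), Emcn (4.77) and Cdh5 (6.43) lay under 6.77, so background may alter their percents. On linear intensities the percent left would be lower for these genes. The percent left was lowest for Pdpn, at 25.8%, followed by 27.5% for Angpt2, 27.6% for Cd34, 28.9% for Apln, 33.9% for Tie1, 35.3% for Selp and 38.9% for Mcam, which lay nearer to WT. Tek, the receptor of Angpt2, lay between these at 51.8%. The medians of the classes were 54.8% for 22 blood endothelial genes, 43.0% for 2 lymphatic genes and 67.9% for 4 mural genes, with ranges that overlapped.

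Within groups the pools moved together across members. Mutant replicate 2 was the lowest mutant pool in 28 of 35 members (80.0%), while it was the lowest in 37.5% of all genes. Its median deviation from the mutant mean was -0.17 over the members, against 0.16 for mutant replicate 1 and 0.05 for mutant replicate 3. Of the blood endothelial genes, 22 of 25 were lowest in that pool, while Prox1, Pdpn, Angpt2, Icam2 and Abcc9 were highest there. Rescued replicate 2 was the highest rescued pool in 19 members, with a median deviation of 0.12, and rescued replicate 1 the lowest in 18. Even so, the median member lay 0.74 above the WT mean in mutant replicate 2, against 0.55 in rescued replicate 2, the rescued pool nearest to it. The mutant pool that was low in vessel genes was also the one low in Xist, and whether the 2 are related was not tested.

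**Figure D4:**
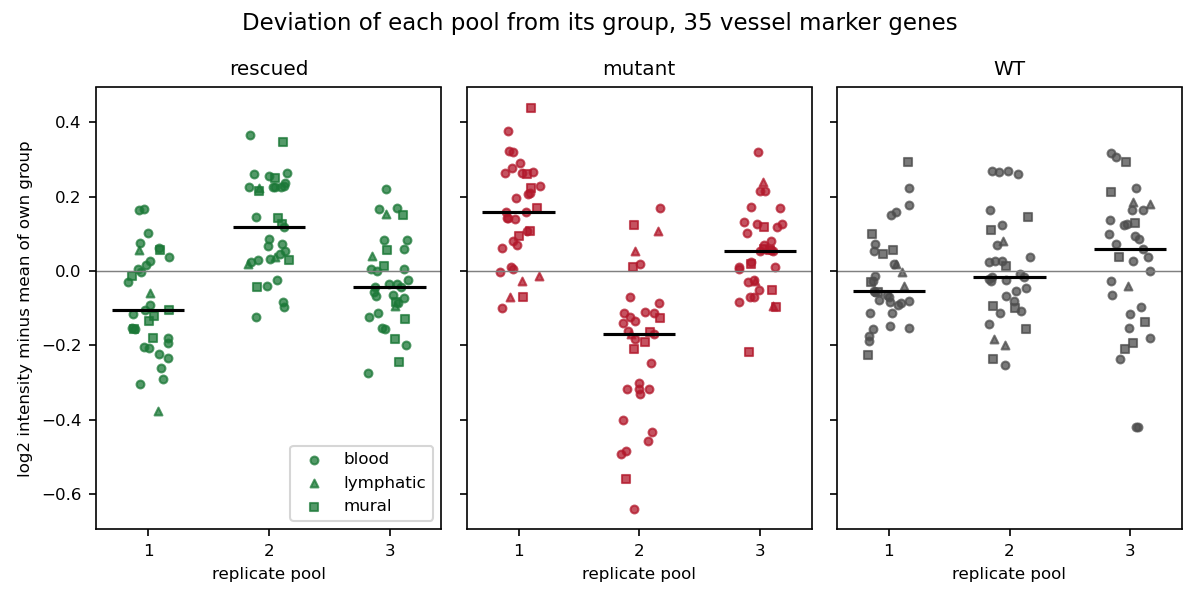
Deviation of each pool from the mean of its own group in log2 intensity (vertical axis) for the 35 members, by replicate pool (horizontal axis) of rescued, mutant and WT corneas. Symbols show the class and black lines the median over members, which is -0.17 in mutant replicate 2 and 0.16 in mutant replicate 1.

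Other genes of the same cell types, from lists that hold no member, were counted beside these results. Of all genes, 15.1% were called higher and 16.5% lower in mutant than in WT corneas. The shares were 6.46% higher and 6.88% lower in rescued against mutant corneas, and 6.28% and 7.43% in rescued against WT corneas. Small counts in a list can lie near these shares. Of 24 further blood endothelial genes, 18 were higher and 2 lower in mutant than in WT corneas, and 9 were lower in rescued corneas against mutant ones. Their summed linear intensity was 6057 to 6417 in rescued pools, 7305 to 8350 in mutant pools and 5407 to 5568 in WT pools, with no overlap of groups. Ptprb, the endothelial phosphatase that acts on Tek, exceeded WT by at least 4.20-fold in mutant corneas, and Flt1, a receptor of vascular endothelial growth factor, at least 3.68-fold. The 2 lower genes, named after their values were seen, were Palmd (-1.50, limma adjusted p = 0.000529) and Kdr, the other main receptor of that factor on blood endothelium (-0.59, limma adjusted p = 0.0133). Both were also lower in rescued than in WT corneas, Palmd by 1.36 and Kdr by 0.59, against 11 of the 24 that were higher. Of 17 arterial, venous and tip cell genes, 10 were higher and 2 lower in mutant than in WT corneas. They included Dll4, the Notch ligand of tip cells, which was at least 2.21-fold higher. The 2 lower ones were Unc5b, a netrin receptor (-0.86), and, named after its values were seen, Nr2f2, a regulator of venous identity (-0.73). Against mutant corneas 5 of the 17 were lower in rescued ones and 2 were higher, Unc5b by 0.57 and Nr2f2 by 0.40. Of 14 further lymphatic genes, 9 were higher in mutant than in WT corneas. Mmrn1, a multimerin that lymphatic endothelium secretes, was at least 2.55-fold higher, and Reln, the secreted glycoprotein reelin, at least 1.78-fold. Rescued against mutant corneas, 5 of these 14 were lower.

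Of 18 further mural genes, 8 were higher and 2 lower in mutant than in WT corneas, and against mutant corneas 5 were lower and 1 higher in rescued ones. The shares of all genes were, in the same order, 15.1%, 16.5%, 6.88% and 6.46%. The 2 lower in mutant corneas, named after their values were seen, were Notch3 (-0.53) and Ednrb (-0.43). Their summed linear intensity was 12467 to 16317 in rescued pools, 21939 to 23764 in mutant pools and 6244 to 6899 in WT pools. Contractile genes led this list: Acta2, smooth muscle actin, rose 30.2-fold and Tagln, an actin-binding protein, 7.97-fold in mutant against WT corneas. Myofibroblasts make these proteins too. Of 9 platelet genes measured, 3 were higher and 1 lower in mutant than in WT corneas. Their sum was 4038 to 9835 in rescued pools, 12295 to 14467 in mutant pools and 927 to 979 in WT pools, led by Ppbp, a platelet chemokine that exceeded WT by at least 140.5-fold in mutant corneas. Pf4, the platelet factor, was at least 2.09-fold higher, while the platelet receptor Gp5 was not called and Gp6 was lower by at least 0.32. Only 3 of 13 listed red blood cell genes were measured, so whether blood content differed cannot be read from them. Of these 3, limma called 0 in each of the 3 comparisons, and at an unadjusted p under 0.05 it had 1 higher in mutant than in WT. Their sum was 178 to 193 in rescued pools, 191 to 195 in mutant pools and 178 to 202 in WT pools. The part of platelets or blood in the Selp, Vwf and Pecam1 values was not tested.

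Markers of the corneal layers were counted in the same way, beside 15.1% of all genes higher and 16.5% lower in mutant than in WT corneas. Of 7 corneal epithelial genes, 1 was higher and 5 lower in mutant than in WT corneas, with sums of 55501 to 57186 in rescued pools, 45510 to 48074 in mutant pools and 52071 to 52651 in WT pools. Of 10 keratocyte genes, 2 were higher and 3 lower in mutant than in WT corneas, and their sums overlapped, at 33355 to 37496 in rescued pools, 28480 to 35300 in mutant pools and 33883 to 38536 in WT pools. Of 8 corneal endothelial genes, 1 was higher and 6 lower in mutant than in WT corneas. Skeletal muscle genes, 12 measured, summed to 1362 to 1427 in rescued pools, 1301 to 1353 in mutant pools and 1319 to 1428 in WT pools. Summed epithelial markers were thus lower in mutant pools than in the other groups, while summed keratocyte markers overlapped, and the part of these layers in the Cd34, Pdpn and Pdgfrb values was not tested. Of the 15 leukocyte genes, 1 was lower and 1 higher in rescued corneas against mutant ones, and 9 were higher and 1 lower, Mertk, in rescued than in WT corneas. The shares of all genes were, in the same order, 6.88%, 6.46%, 6.28% and 7.43%. The leukocyte integrin gene Itgam was the one higher in rescued corneas against mutant ones, by 1.39. Lyz2, lysozyme of myeloid cells, differed by 0.06 between rescued and mutant corneas (SE 0.12, limma adjusted p = 0.797).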

How the data were processed

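Total RNA of each pool was labelled with biotin and hybridised to an Affymetrix whole-transcript array, per the labels' protocols. The deposited table holds log2 intensities as the authors normalised them; no source used here states the normalisation or the log base, and base 2 was taken from the range of values (2.14 to 14.3). Array medians lay at 6.75 to 6.78, so no further scaling was applied. Of 41345 rows, 23521 had 1 symbol in the platform annotation, 1814 had several and 16010 were not listed; the brightest row per gene, by the mean over 9 arrays, gave 22180 genes. All 9 arrays entered 1 fit in limma 3.58.1 (R 4.3.3; lmFit and eBayes), with 3 contrasts and p-values adjusted over all genes. The members, the lists and the tests were chosen with earlier results of these data known. All 35 members and up to 4 genes of each other list, those with the largest difference between mutant and WT, could be named. A list was described by counts and medians, with no test of the list. The labels call the replicates biological; 3 pools a group and the lack of counts limit the precision. Same-numbered replicates did not deviate together (correlations -0.02 to 0.06), so no pairing was used. Alternatives changed the normalisation, filter, row choice, variance model, arrays in the fit, threshold, replicate block and left-out arrays.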

Additional observations from a re-analysis of the deposited data

Results flagged for a closer look

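A second array row of Rgs5, not used above, was 2.90 higher in mutant than in WT corneas on the log2 scale, against 4.80 for the row used. This row was at 6.48, 6.94 and 6.77 in rescued pools, 7.99, 7.24 and 7.76 in mutant pools and 5.0, 4.85 and 4.44 in WT pools. It drew attention because it lies outside the main measurement and all its mutant pools were above the WT pools. Both rows had rescued pools between the other groups. Why the 2 rows differ in size was not tested.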

How the results depend on the processing

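Calls between mutant and WT corneas moved least: 24 of the 28 held with each array left out. Under the 11 other settings that kept the threshold, 27 of the 28 held wherever the gene was tested. Angpt1 was lost with the mean of all rows. Among these settings, a filter at the median intensity tested only 26 members and called 24 of them higher in mutant corneas. Some of the 28 were thus not tested under that filter. With each array left out, members called higher in mutant than in WT numbered 24 to 28, those lower in rescued than in mutant 5 to 21 and those higher in rescued than in WT 12 to 19. Over all genes, calls in either direction numbered 5913 to 6948, 1808 to 2795 and 1812 to 2975 in these comparisons. No called difference changed sign under any alternative run. With at least a 2-fold change also required, the member counts were 15, 1 and 8 in the same order, and at an adjusted p under 0.01 they were 24, 4 and 11. All genes called in either direction then numbered 1116, 312 and 372 at 2-fold, and 4805, 1420 and 1374 at the stricter p. The replicate block gave 28, 12 and 16 members, although the numbers do not pair the pools, and fits of the 6 arrays compared gave 28, 13 and 18. Among all genes the block gave 6687, 2507 and 2656 calls in either direction, and the 6-array fits 6661, 2401 and 2590. Among uncalled differences the sign turned with an array left out, over these ranges: Pdgfrb between mutant and WT (-0.05) from -0.16 to 0.03, Kcnj8 (-0.10), Sox17 (0.02) and Erg (0.08) between rescued and mutant from -0.20 to 0.03, -0.02 to 0.09 and -0.01 to 0.18, and Des (0.09) and Prox1 (0.02) between rescued and WT from -0.04 to 0.16 and -0.08 to 0.11. Prox1 was called higher in mutant than in WT corneas under quantile normalisation, a filter at the 25th percentile and array weights. The cause was not tested. Dim genes, such as Icam2, Sele and Prox1, lie under the median of all rows, where background can narrow differences.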
